A study of Mus musculus with 12 samples.

Results

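The axoneme is the microtubule core of motile cilia and of the sperm tail. A set of 48 genes for axoneme parts, for the factors that assemble and transport them and for their transcription was taken by symbol from known roles. Of these, 42 were measured by an array cluster annotated to a single gene, among 22180 such genes in all. Dnah3, Dnah12, Dnai1 and Dnai2 were not analysed here, and neither were Ccdc39 and Mns1, whose only clusters were annotated to several genes.

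Outer and inner dynein arms bend the axoneme, and radial spokes, the central pair and the nexin link hold and regulate it. Dynein arms are put together in the cytoplasm by dedicated assembly factors, intraflagellar transport carries parts along cilia, and the transcription factors FOXJ1 and RFX2 switch on many of the genes. In the testis the sperm tail itself is built in spermatids, after meiosis, while transcripts of a number of axoneme genes are already made in spermatocytes, the cells in meiotic prophase.

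RNA came from whole testes of C57BL/6N mice aged 2 weeks, when the first wave of germ cells is in meiosis, with a separate Affymetrix whole-transcript array for every testis. The Sox3-KO group (KO, 3 testes) is labelled as a knockout of the SoxB1 transcription factor gene Sox3, and the Sox3-Sox2KI group (KI, 3 testes) carries, as its name gives it, the related gene Sox2 knocked into the Sox3 locus. Both lines were made by CRISPR/Cas9 editing. Of the 6 WT testes, WT 1, WT 2 and WT 3 were littermates of KI mice, and WT 4, WT 5 and WT 6 were littermates of KO mice, below called WT testes of KI litters and of KO litters. Which of them shared a litter is not given in the sources used here. The labels call the replicates biological, and they do not give the number of founders behind a line or the extent of the deletion. Since each sample is a whole testis, fewer cells of a type and less RNA per cell cannot be told apart. The question was which of these genes are already measured above background in these testes, and which differ by genotype.

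All values are log2 levels after the authors' normalization, so a difference of 1 is a doubling, and array medians lay between 5.74 and 5.82. Sox3 lay between 7.21 and 7.36 in WT testes, between 6.57 and 6.65 in KO testes and between 6.75 and 7.26 in KI testes, with KI 1 inside the WT range. The KO signal was thus lower than in every WT testis but stayed above the background limit of 5.33 used below. Where the probes lie relative to the deleted part is not given in the sources used here. Sox2 lay between 3.81 and 4.51 on all arrays, under the background limit used below. Over all genes, 520 were lower and 558 higher in KO than in WT testes by limma at an adjusted p under 0.05. WT 4 and WT 6 stood apart from the other WT testes for the axoneme genes and for pachytene markers. The comparisons of KO and of KI with all WT testes are therefore also given without them.

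At the background limit used, most axoneme genes were measured above background at 2 weeks, as were most of all genes. Those of the airway-type outer arm were not, and stricter limits left a minority. The limit was 5.33, the 95th percentile of 1105 olfactory receptor genes, a family that is silent in nearly all tissues other than the nose. By its mean over the 12 arrays, 32 of the 42 members lay above this limit, against 65.6% of all genes. Above it on all 12 arrays were 27 members. Counted within groups, 30 members were above the limit in every WT testis, 27 in every KO testis and 32 in every KI testis. At the 99th percentile of the same olfactory receptor genes the counts were 11, 9 and 16 of 42, and at the median of all genes 15, 13 and 17. For these counts by array the share of all genes is not given. The 10 members with a mean at or below the limit were Dnah5, Dnah9 and Dnah11, the outer arm motors known from airway and nodal cilia, the inner arm heavy chains Dnah6 and Dnah10, the spoke head gene Rsph4a, the central pair gene Spag6, the axonemal gene Ccdc113, and the tektins Tekt3 and Tekt4. For these 10 genes a level this low is only a bound, and a difference between groups is hard to read. The Spag6 measured here is the gene annotated to chromosome 2, and its level stands for that gene only. Spag16, Nme5 and Zmynd10 lay above the limit in every WT testis but not in every KO testis.

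**Figure D1:**
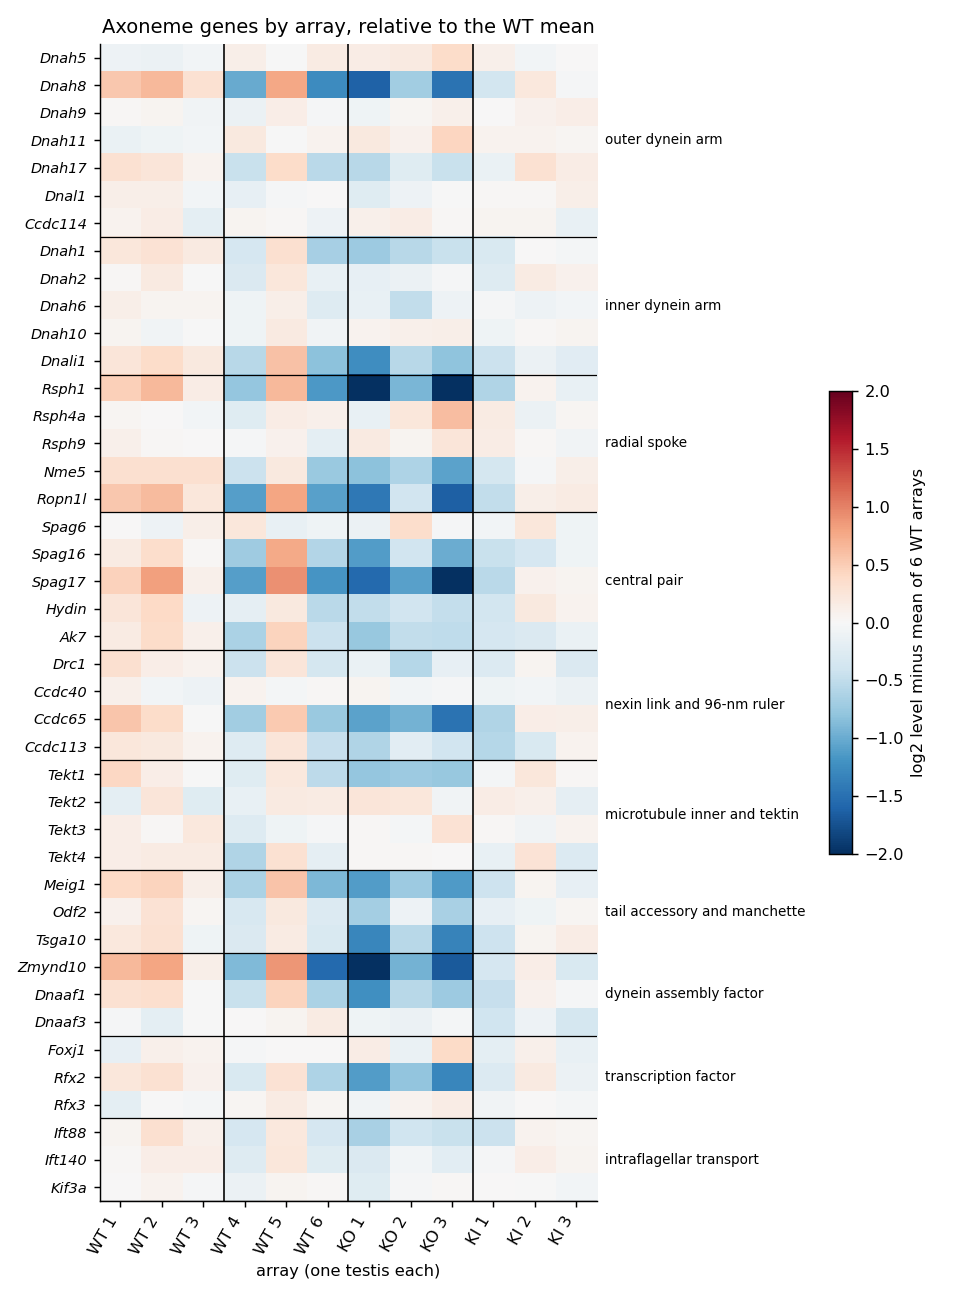
Log2 level of the 42 measured axoneme genes (rows, grouped by role) on each of the 12 arrays (columns), minus the mean of the 6 WT arrays, with blue for lower and red for higher. WT 4 and WT 6 are blue in many of the rows in which the 3 KO arrays are blue, and WT 5, also a KO littermate, is red in them.

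The WT testes themselves differed widely for these genes. The mean level over the 32 members above the limit was 7.19, 7.27 and 7.03 in WT 1, WT 2 and WT 3, and 6.58, 7.31 and 6.49 in WT 4, WT 5 and WT 6. It was 6.23, 6.58 and 6.31 in KO 1, KO 2 and KO 3, and 6.71, 7.03 and 6.93 in KI 1, KI 2 and KI 3. So WT 6 lay within the range of the KO testes, and WT 4 was level with KO 2, the highest of them (6.579 against 6.578). WT 5, also a KO littermate, was the highest testis of all. WT 4 and WT 6 were the lowest 2 of the 6 WT arrays for 24 of these 32 members, or 75.0%, against 10.8% of all genes. Single members spread over more than 1 log2 unit among WT testes for 12 of 42, up to 2.43 for Zmynd10, 2.10 for Spag17 and 2.02 for Dnah8. Among KO testes, KO 2 was highest for 21 of the 32 members, and among KI testes KI 1 was lowest for 26 of 32.

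In KO testes, 5 of the 42 axoneme genes were lower than in the 6 WT testes and none was higher. The 5 were the transcription factor gene Rfx2, the radial spoke head gene Rsph1, the nexin link gene Ccdc65, the tektin gene Tekt1 and the sperm tail gene Tsga10, by 1.69-fold to 3.82-fold. Over all genes, limma called 2.34% lower and 2.52% higher, and 5 of 42 members is 11.9%. A further 16 members were lower and 2 (Dnah5 and Dnah11) higher at an unadjusted p under 0.05 in limma without passing the adjustment. The share of all genes at that unadjusted threshold is not given here or below, so such counts are description only. The median difference over the 42 members was -0.34, against 0.043 over all genes, and 29 of 42 differences were negative, against 40.2% of all genes. The median was -0.54 over the 32 members above the background limit, 27 of them negative, and 0.083 over the 10 at or below it, 2 of them negative.

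The count of calls depended on which arrays entered. The count of lower members was 0 when WT 1, WT 2, WT 3, WT 5, KO 1 or KO 3 was left out, and in those fits limma called 0.0676%, 0.0721%, 0.0451%, 0.0586%, 0.00902% and 0.00451% of all genes lower. It was 15 without WT 4 (3.49% of all genes lower), 15 without WT 6 (4.06%), 9 without KO 2 (4.27%) and 3 without KI 3 (1.01%). Without both WT 4 and WT 6, set aside after their low values were seen, 24 members were lower and 2 higher (Dnah5 and Dnah11, both near background), where 5.88% and 5.6% of all genes were called lower and higher. The 5 genes then differed by -1.30 for Rfx2, -2.42 for Rsph1, -1.53 for Ccdc65, -0.95 for Tekt1 and -1.22 for Tsga10. With only the 3 KO littermates as controls, limma called no member, and 1 gene of all lower (0.00451%).

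**Figure D2:**
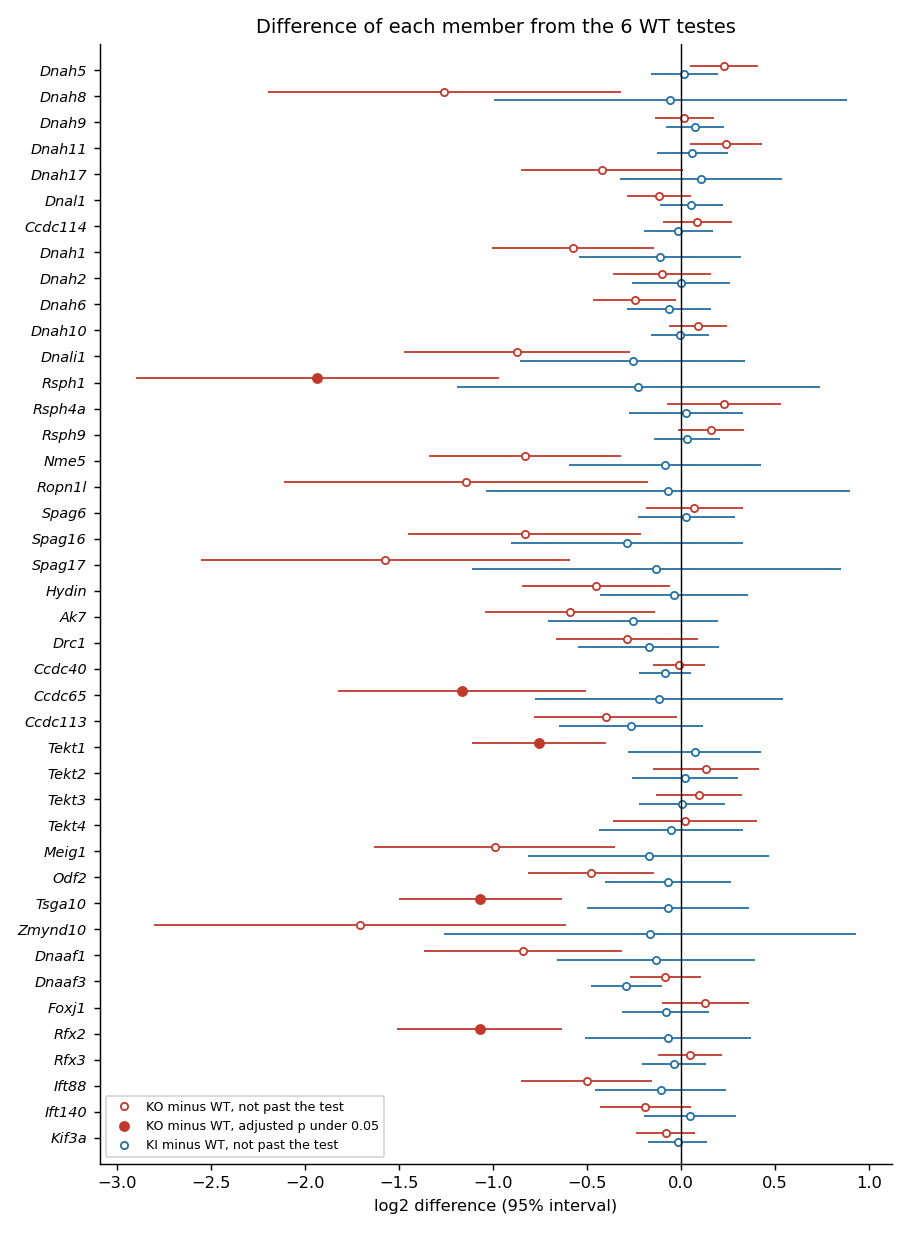
Log2 difference from the 6 WT testes for each member, with KO minus WT in red and KI minus WT in blue, and 95% intervals from limma as bars. The 5 filled points, Rsph1, Ccdc65, Tekt1, Tsga10 and Rfx2, passed at an adjusted p under 0.05, all in KO, and no KI difference passed.

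Of the 3 transcription factors, Rfx2 fell in KO testes while Foxj1 and Rfx3 did not pass the test. Rfx2 is an RFX factor needed for the ciliary gene programme of spermatids. It lay at 8.47, 8.55 and 8.33 in WT testes of KI litters, 7.94, 8.54 and 7.62 in WT testes of KO litters, 7.12, 7.46 and 6.93 in KO testes and 7.97, 8.42 and 8.13 in KI testes. All 3 KO testes were below all 6 WT testes, of which WT 6 was the nearest, and the KI testes lay within the WT range. WT testes averaged 8.24 ± 0.38 (SD, n = 6) and KO testes 7.17 ± 0.27 (SD, n = 3), a difference of -1.07 (SE 0.20, limma adjusted p = 0.0310, exact two-sided permutation p = 0.0238). This permutation p is the smallest that the 84 splits of the arrays allow, and any gene with all KO testes below all WT testes reaches it. Permutation tests were run only for members that limma had called and for Foxj1 and Rfx3. Their unadjusted p values here and below are therefore not separate support. Foxj1, the forkhead factor of motile cilia, lay at 5.44, 5.70 and 5.68 and at 5.59, 5.61 and 5.61 in the WT litters, at 5.76, 5.46 and 5.98 in KO and at 5.41, 5.70 and 5.46 in KI testes. These values are just above the background limit and overlap between all groups, and KO minus WT was 0.13 (95% interval -0.10 to 0.36, limma adjusted p = 0.499). Rfx3, an RFX factor of many ciliated tissues, lay between 7.07 and 7.42 in WT testes, at 7.20, 7.32 and 7.41 in KO and at 7.19, 7.26 and 7.22 in KI testes. The groups overlapped, and KO minus WT was 0.049 (95% interval -0.12 to 0.22, limma adjusted p = 0.752).

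Rsph1, a radial spoke head gene, had the lowest KO minus WT difference of the set. Its levels were 10.31, 10.48 and 9.98 in WT testes of KI litters, 9.05, 10.48 and 8.67 in WT testes of KO litters, 7.18, 8.91 and 7.59 in KO testes and 9.23, 9.90 and 9.67 in KI testes. KO 2 lay above WT 6, so KO and WT testes overlapped, and KO 1 and KO 3 lay below every WT testis. The difference was -1.93 (SE 0.45, 3.82-fold, limma adjusted p = 0.0364, exact permutation p = 0.0476). Among the other spoke genes, the stalk genes Ropn1l and Nme5 differed by -1.15 and -0.83 without passing, and the head genes Rsph9 and Rsph4a by 0.16 and 0.23. Rsph4a lay below the background limit on all arrays.

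Ccdc65, a subunit of the nexin link between microtubule doublets, fell in KO testes as well. It lay at 7.37, 7.18 and 6.81 in WT testes of KI litters, 6.11, 7.34 and 6.08 in WT testes of KO litters, 5.74, 5.87 and 5.34 in KO testes and 6.22, 6.95 and 6.93 in KI testes. All KO testes were below all WT testes, with WT 4 and WT 6 the nearest. The difference was -1.17 (SE 0.30, 2.24-fold, limma adjusted p = 0.0479, exact permutation p = 0.0238), and it no longer passed with array weights (adjusted p = 0.0585). The nexin link scaffold gene Drc1, the ruler gene Ccdc40 and Ccdc113 differed by -0.29, -0.0097 and -0.40, and none passed.

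Tekt1, one of the tektins that line the inside of axonemal doublets, fell less in size than the other 4 called genes but had closely spaced KO values (SD 0.022, n = 3). It lay at 6.68, 6.41 and 6.27 in WT testes of KI litters, 6.03, 6.49 and 5.74 in WT testes of KO litters, 5.50, 5.54 and 5.52 in KO testes and 6.24, 6.50 and 6.30 in KI testes. All KO testes were below all WT testes, and the KO values lay near the background limit. The difference was -0.75 (SE 0.16, 1.69-fold, limma adjusted p = 0.0327, exact permutation p = 0.0238). The other tektins differed by 0.14 for Tekt2, 0.096 for Tekt3 and 0.023 for Tekt4, and none passed.

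Tsga10, known as a protein of the sperm tail sheath, lay at 7.95, 8.04 and 7.65 in WT testes of KI litters, 7.44, 7.90 and 7.44 in WT testes of KO litters, 6.43, 7.19 and 6.40 in KO testes and 7.32, 7.79 and 7.89 in KI testes. All KO testes were below all WT testes, with KO 2 the nearest to them. The difference was -1.07 (SE 0.20, 2.10-fold, limma adjusted p = 0.0310, exact permutation p = 0.0238). Meig1, which acts at the manchette of elongating spermatids, differed by -0.99 (limma adjusted p = 0.0692), and Odf2, of the outer dense fibres and of centrioles, by -0.48 (limma adjusted p = 0.0872). All 3 genes of the tail accessory and manchette group were thus lower on average, and 1 of 3 passed.

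**Figure D3:**
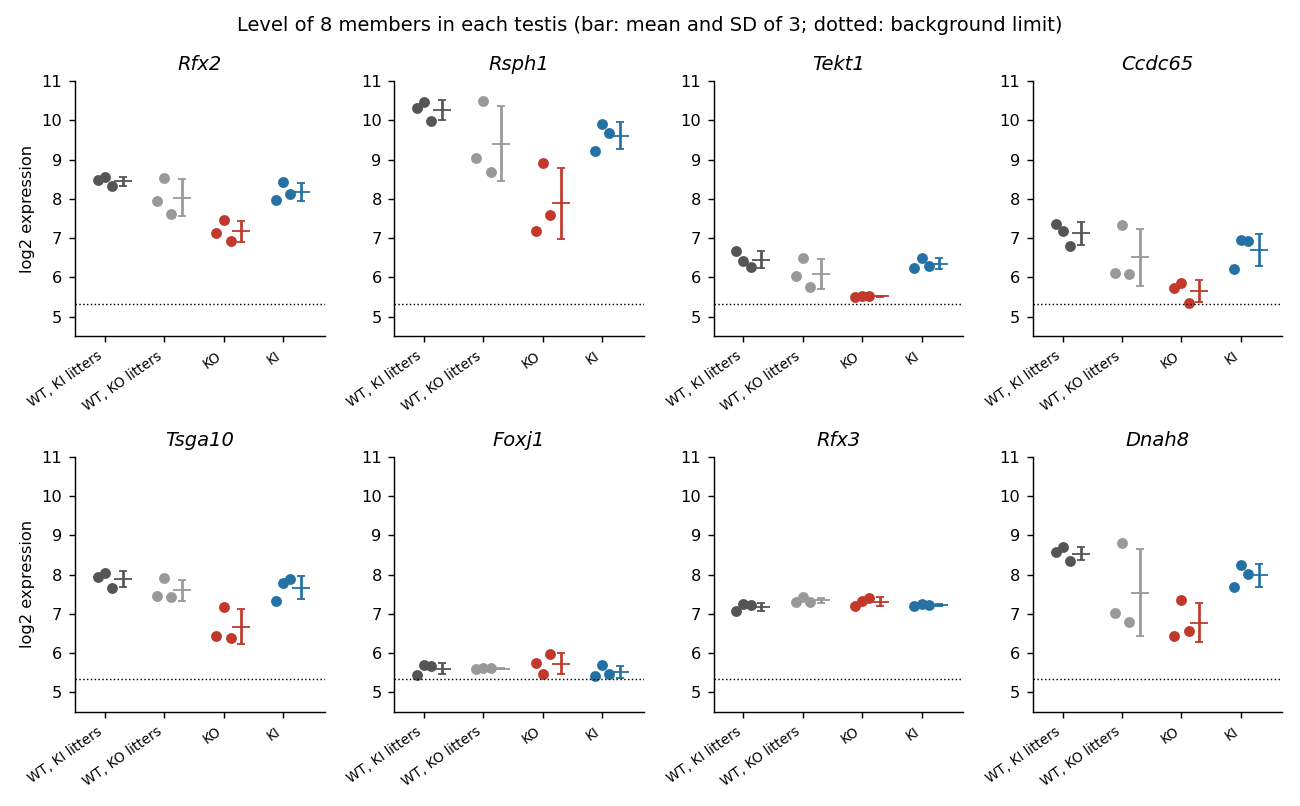
Log2 level of 8 members in each testis (points), with the mean and SD of each group of 3 beside them and the background limit of 5.33 dotted. For Rfx2, Tekt1, Ccdc65 and Tsga10 every KO point lies below every WT point, for Rsph1 and Dnah8 KO and WT points overlap, and Foxj1 and Rfx3 differ little between groups.

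The sequences before the starts of 4 of the 5 genes that fell are shown, Rsph1 having no entry in the promoter table used, because RFX factors bind X-boxes in promoters of ciliary genes, MYB factors act in meiotic cells, and Rfx2 itself was one of the genes that fell. Promoters were read from RefSeq (GRCm38.p6) as the 250 bases before an annotated start, 5′ to 3′ on the gene's strand, and capitals mark motif matches on either strand. The motifs searched were the full X-box (GTTNCC, then 0 to 3 bases, then GGNAAC), a single arm of it, GTTGCC (called the RFX arm here), the MYB motif CNGTTG and the forkhead motif GTAAACA. The RFX arm and the MYB motif share the letters GTTG, so a single stretch can match both, as it does in Rfx2 and in Tekt1. A match is a description of letters and not a site in use. X-boxes with other letters were not searched, so a window without a match can still hold such an X-box.
The Rfx2 window (chr17:56831009-56831258, minus strand) held 3 MYB matches and 1 RFX arm, which overlaps the last of them.
Rfx2: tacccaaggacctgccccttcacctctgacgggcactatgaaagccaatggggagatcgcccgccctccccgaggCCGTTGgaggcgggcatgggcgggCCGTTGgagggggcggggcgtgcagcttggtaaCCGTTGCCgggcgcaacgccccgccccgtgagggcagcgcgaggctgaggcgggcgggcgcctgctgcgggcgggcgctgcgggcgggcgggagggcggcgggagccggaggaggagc
The Tekt1 window (chr11:72361883-72362132, minus strand, the start with the most matches of 2 listed) held 2 RFX arms, 1 of them on the opposite strand, and 1 MYB match.
Tekt1: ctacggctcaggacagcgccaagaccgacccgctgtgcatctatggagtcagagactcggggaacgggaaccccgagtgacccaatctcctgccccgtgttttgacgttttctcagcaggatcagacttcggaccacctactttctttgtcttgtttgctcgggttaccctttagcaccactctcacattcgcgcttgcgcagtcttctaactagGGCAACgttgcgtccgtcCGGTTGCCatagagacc
The Tsga10 window (chr1:37865299-37865548, minus strand, the start with the most matches of 3 listed) held 1 MYB match, on the opposite strand.
Tsga10: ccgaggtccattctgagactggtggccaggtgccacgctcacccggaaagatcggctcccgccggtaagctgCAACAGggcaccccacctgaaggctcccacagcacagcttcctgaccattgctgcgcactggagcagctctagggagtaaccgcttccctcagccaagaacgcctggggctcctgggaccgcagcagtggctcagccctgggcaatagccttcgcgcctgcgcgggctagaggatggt
The Ccdc65 window (chr15:98707944-98708193, plus strand) does not hold these letters.
Ccdc65: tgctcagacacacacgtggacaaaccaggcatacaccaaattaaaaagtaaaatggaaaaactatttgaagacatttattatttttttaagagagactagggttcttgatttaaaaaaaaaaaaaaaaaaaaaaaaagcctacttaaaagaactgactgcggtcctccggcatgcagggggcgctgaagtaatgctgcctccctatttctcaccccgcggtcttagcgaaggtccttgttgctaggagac
The Rfx3 window (chr19:28011167-28011416, minus strand), of the RFX gene that did not pass the test, does not hold them either.
Rfx3: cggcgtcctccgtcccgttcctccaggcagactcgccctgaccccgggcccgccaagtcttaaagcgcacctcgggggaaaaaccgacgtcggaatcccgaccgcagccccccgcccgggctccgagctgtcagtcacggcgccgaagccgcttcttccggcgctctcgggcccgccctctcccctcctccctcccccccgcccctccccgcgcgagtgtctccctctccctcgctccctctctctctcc

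Of the 42 members, 37 had a promoter entry. Over all listed starts, an RFX arm lay before 12 of these 37 genes (32.4%), against 11.8% of 27025 genes with an entry. A MYB motif lay before 24 of 37 (64.9%) against 32.3%, and a forkhead motif before 3 of 37 (8.11%) against 3.54%. The forkhead matches lay before Dnah17, Ak7 and Tekt3. No member held a full X-box in the strict form searched, which 0.788% of all genes did. Full X-boxes with other letters were not searched, so their absence is not shown.

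**Figure D4:**
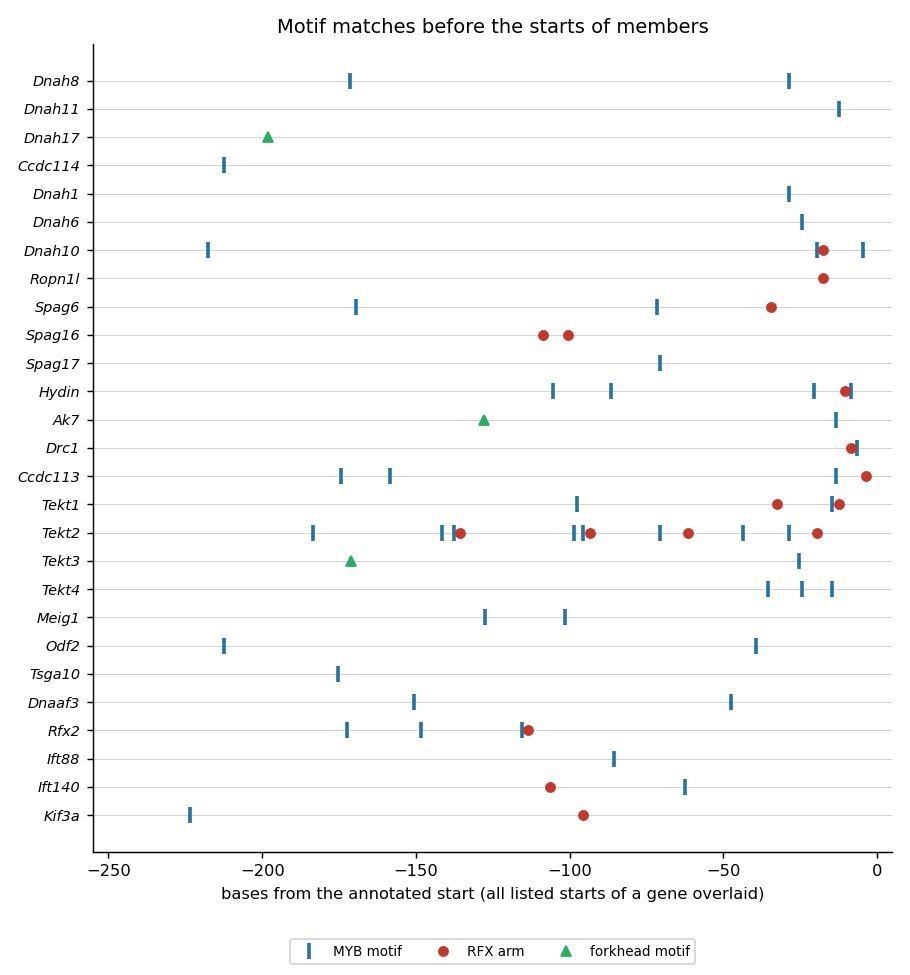
Positions of motif matches in the 250 bases before the annotated starts of the 27 members that held any, with the x axis in bases from the start and all starts of a gene overlaid. RFX arms (red points) lie before 12 genes, MYB motifs (blue bars) before 24 and forkhead motifs (green triangles) before 3.

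Of the outer dynein arm genes, 7 of 9 were measured and none passed in KO testes, with a median difference of 0.019. Dnah8, the outer arm heavy chain of the sperm tail, lay at 8.57, 8.69 and 8.35 in WT testes of KI litters, 7.03, 8.81 and 6.79 in WT testes of KO litters, 6.43, 7.34 and 6.57 in KO testes and 7.67, 8.25 and 8.02 in KI testes. KO 2 lay above WT 4 and WT 6, and KO 1 and KO 3 lay below every WT testis. Its difference of -1.26 (95% interval -2.20 to -0.32) did not pass (limma adjusted p = 0.101). Without WT 4 and WT 6, set aside after their low values were seen, it was -1.82 (limma adjusted p = 0.0016). That choice of arrays favours a larger difference and a smaller p. Dnah17, the other outer arm heavy chain of the sperm tail, differed by -0.42, the light chain gene Dnal1 by -0.12 and the docking complex gene Ccdc114 by 0.087. The airway-type heavy chains Dnah5, Dnah9 and Dnah11, all below the background limit, differed by 0.23, 0.019 and 0.24.

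Of the inner dynein arm genes, 5 of 7 were measured and none passed, with a median of -0.25. Dnali1, a light intermediate chain, lay at 7.36, 7.49 and 7.32 in WT testes of KI litters, 6.57, 7.70 and 6.30 in WT testes of KO litters, 5.88, 6.56 and 6.32 in KO testes and 6.69, 7.01 and 6.90 in KI testes. KO 2 and KO 3 lay above WT 6 and below the other WT testes. The difference was -0.87 (limma adjusted p = 0.0819). The heavy chain genes differed by -0.57 for Dnah1, -0.10 for Dnah2, -0.25 for Dnah6 and 0.093 for Dnah10.

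Of the 5 central pair genes none passed, with a median of -0.59. Spag17 lay at 6.69, 7.05 and 6.33 in WT testes of KI litters, 5.13, 7.15 and 5.04 in WT testes of KO litters, 4.67, 5.15 and 4.16 in KO testes and 5.70, 6.32 and 6.29 in KI testes. Its KO testes, and WT 4 and WT 6 with them, lay below the background limit, and KO 2 lay above both of those WT testes. The difference was -1.57 (95% interval -2.56 to -0.59, limma adjusted p = 0.0622), but a second, dimmer Spag17 cluster with a mean of 4.07 differed by 0.10, and with both clusters averaged the difference was -0.74. Spag16, Ak7 and Hydin differed by -0.83, -0.59 and -0.45, and Spag6 by 0.073.

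The dynein assembly factors and intraflagellar transport genes had no member past the test. Zmynd10, an assembly factor, lay at 7.90, 8.04 and 7.38 in WT testes of KI litters, 6.37, 8.14 and 5.71 in WT testes of KO litters, 4.76, 6.31 and 5.57 in KO testes and 6.92, 7.39 and 6.96 in KI testes. KO 2 lay above WT 6, and the other KO testes lay below every WT testis. The difference was -1.71 (95% interval -2.81 to -0.61, limma adjusted p = 0.0673). The assembly factors Dnaaf1 and Dnaaf3 differed by -0.84 (limma adjusted p = 0.0630) and -0.082. Ift88, a core transport subunit, lay between 8.52 and 9.18 in WT testes with a mean of 8.87, at 8.22, 8.46 and 8.42 in KO and at 8.44, 8.94 and 8.91 in KI testes. All KO testes were below all WT testes, by a narrow gap, and the difference of -0.50 did not pass (limma adjusted p = 0.0847). Ift140 and the kinesin gene Kif3a differed by -0.19 and -0.080. Counted without a model, all KO testes lay below all WT testes for 5 of 42 members (Rfx2, Tekt1, Ccdc65, Tsga10 and Ift88), or 11.9%, against 4.59% of all genes, and above them for 0, against 6.87%.

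Other genes of the same structures, from a list written by known role, were lower in KO testes in 16 of 131 measured cases and higher in 0. Of all genes, 2.34% were called lower and 2.52% higher. Intraflagellar transport held 7 of 27, among them Ttc26 at -1.19, Wdr35 at -1.13, Ttc30a1 at -1.06, Ift80 at -0.86, Ift22 at -0.74 and Ift122 at -0.62. The radial spoke, central pair and nexin link genes held 5 of 50, among them Cfap69 at -1.31 and the kinesin gene Kif9 at -0.99. Of the transcription and multiciliation genes, 2 of 17 fell, Sox30 by 1.43 and the MYB factor gene Mybl1 by 0.87 on the log2 scale. Both are known from meiotic and later germ cells. These 10 had the smallest p. The dynein arm list held 1 of 12, Ccdc151 at -0.92, the assembly list 1 of 9, Pih1d2 at -0.85, and the spoke list also Cfap206 at -1.62, Spa17 at -0.91 and Drc3 at -0.78, named after their values were seen. In the sperm tail sheath list 0 of 16 passed in limma and 5 had an unadjusted p under 0.05. Medians of the lists lay between -0.37 and -0.0070.

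Markers of spermatocytes were also lower in KO testes, and their part in the axoneme result was not tested. Of the early prophase and pachytene sums, only the pachytene sum overlapped between WT and KO testes, as the axoneme means did. Of 23 early meiotic prophase markers 19 were lower in KO testes, with a median of -0.73, and the sum of their linear levels was 11902 to 15227 in WT, 7036 to 10684 in KO and 10809 to 13056 in KI testes. Of 17 pachytene markers 7 were lower, with a median of -0.93, and their sum was 2954 to 8188 in WT, 1739 to 3318 in KO and 3858 to 5502 in KI testes. The low end of the pachytene range in WT was WT 6, with WT 4 next at 3479. Of 10 round spermatid markers 0 passed in limma, and 0 had an unadjusted p under 0.05. Their sum was 333 to 366 in WT and 328 to 356 in KO testes. Of the 10, 4 had a mean above the background limit. The spermatid nuclear genes Prm1, Tnp1, Tnp2 and Hils1 lay below it on all arrays.

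Other ciliated cells were also checked. Multiciliated cell markers summed to 543 to 650 in WT, 681 to 747 in KO and 558 to 570 in KI testes, and 1 of 10, Cyp2s1, was higher in KO testes (0.68). The multiciliation switch genes Mcidas and Gmnc averaged 5.72 and 4.65 in WT and 5.83 and 4.64 in KO testes. Efferent duct and epididymis markers passed in 0 of 15 cases, with 6 at an unadjusted p under 0.05 in limma. Most markers of Sertoli and Leydig cells lay higher in KO testes. Of 12 Sertoli cell markers 2 were called higher and 9 had an unadjusted p under 0.05 in limma, with a median of 0.31, and their sum was 14404 to 15728 in WT, 15902 to 16824 in KO and 14836 to 16117 in KI testes. Of 7 Leydig cell markers 1 was called higher and 5 had an unadjusted p under 0.05 in limma, with a median of 0.60, and their sum was 2004 to 3539 in WT, 3747 to 4453 in KO and 1954 to 3414 in KI testes. The other way went 2 of the 12 Sertoli cell markers and 1 of the 7 Leydig cell markers, the latter at -1.74. For the multiciliated, Sertoli and Leydig lists every KO sum was above every WT sum, and their part in the axoneme result was not tested. Of the 10 multiciliated cell markers 3 had a negative difference in KO minus WT. The mean log2 level of that list overlapped, at 5.322 to 5.539 in WT and 5.522 to 5.561 in KO testes. Macrophage and endothelium markers passed in 0 of 8 and 0 of 6 cases, with medians of 0.11 and 0.17. Of 14 spermatogonial markers 3 were called higher, Gfra1, Ret and Etv5, and the median over the list was 0.153. The difference was negative for 4 of the 14, down to -0.307.

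**Figure D5:**
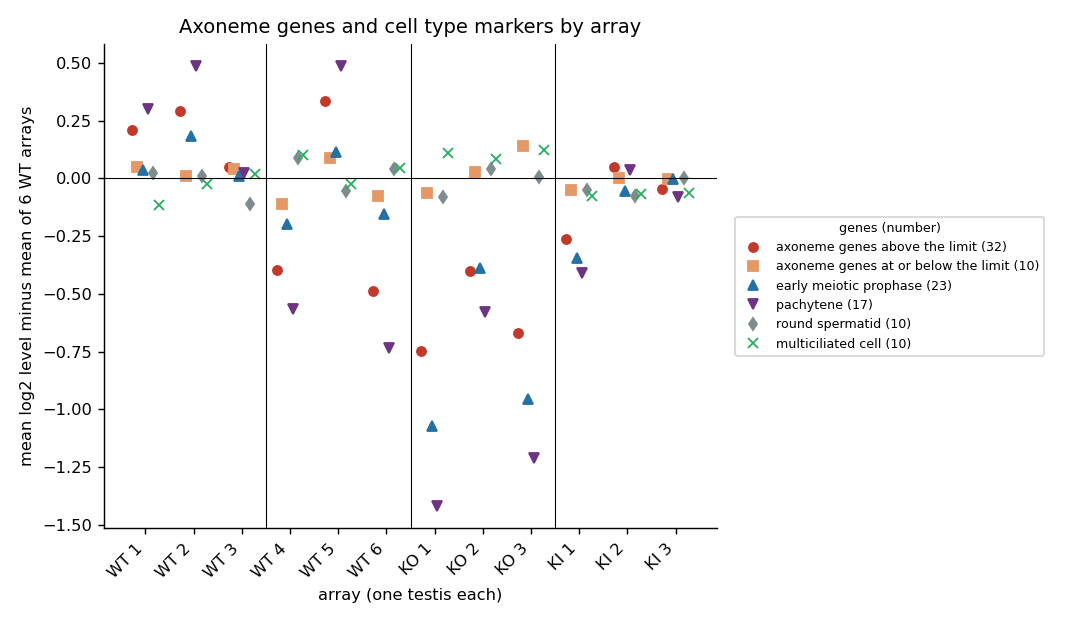
Mean log2 level of each gene list on each array, minus its mean over the 6 WT arrays, for axoneme genes above and at or below the background limit and for markers of 4 cell types. Axoneme genes above the limit (red) and pachytene markers (purple) lie low in WT 4, WT 6 and the 3 KO testes, while round spermatid and multiciliated cell markers stay near 0 on this scale. The summed linear level of multiciliated cell markers, not drawn, was higher in every KO testis than in every WT testis.

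No axoneme gene passed the test between KI and WT testes. By limma 0 of 42 members passed, as did 0 of all genes (0.0%), and 1 member, Dnaaf3, had an unadjusted p under 0.05, with a difference of -0.29. The median difference was -0.066, and the differences ranged from -0.29 to 0.11. All KI testes lay below all WT testes for 0 members, against 1.31% of all genes, and above them for 0, against 1.79%. Without WT 4 and WT 6, set aside after their low values were seen, limma still called 0 members. In that fit 14 were lower in KI at an unadjusted p under 0.05, a count that the choice of arrays favours. The intervals still allow changes of some size. For Rfx2 the difference was -0.069 with a 95% interval of -0.51 to 0.37, for Tsga10 -0.069 with an interval of -0.50 to 0.36, for Tekt1 0.073 with -0.28 to 0.43, for Ccdc65 -0.12 with -0.77 to 0.54, and for Rsph1 -0.23 with -1.19 to 0.74.

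KI and KO testes were compared directly, without WT arrays in either mean. By limma 0 of 42 members passed, and 0.0% of all genes did, while 13 members were higher and 1 lower in KI at an unadjusted p under 0.05. The median difference was 0.21. All KI testes lay above all KO testes for 19 of 42 members, against 9.56% of all genes, and below them for 3 (Dnah5, Dnah10 and Dnah11, all near background), against 12.6%. The 19 included the 5 genes that fell in KO testes. Rsph1 was higher in KI testes by 1.71 (limma adjusted p = 0.155), Ccdc65 by 1.05 (0.182 by limma), Rfx2 by 1.001, Tsga10 by 0.998 and Tekt1 by 0.83 (0.133 by limma for each of these 3). With 3 testes a group an exact permutation test cannot go below 0.10, and it gave 0.10 for each of the 5. Without KO 2, limma called 3 members higher in KI, namely Rfx2, Rsph1 and Tsga10, where 1.54% of all genes were called higher.

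The same genes were also followed against littermates alone, with fewer controls. WT testes of KI and KO litters were compared first, and 0 of 42 members passed by limma (0.0% of all genes), with 5 at an unadjusted p under 0.05 (Nme5, Tekt3, Dnah1, Dnah8 and Tekt1) and a median of 0.30 toward the KI litters. WT testes of KI litters lay all below those of KO litters for 4 members, against 7.93% of all genes, and all above for 2, against 3.8%. Leaving out WT 5, the high testis of the KO litters, gave 3 calls, Ak7, Dnah8 and Meig1, where 0.216% of all genes were called higher. Against its own 3 littermates, KO had 0 calls, 11 members at an unadjusted p under 0.05 in limma (10 lower) and a median of -0.19. All KO testes lay below all 3 littermates for 6 members, against 7.13% of all genes, and above them for 0, against 10.2%. Without KO 2 there were 3 lower calls (1.28% of all genes), and without WT 4 and WT 6, which leaves WT 5 as a single littermate assumed to vary like the other groups, there were 13 (1.39%). KI had 0 calls against its own littermates, 2 members at an unadjusted p under 0.05 in limma and a median of -0.21. All KI testes lay below all 3 littermates for 13 of 42 members, against 6.07% of all genes, and above them for 1, against 8.37%. The KO and KI effects against littermates share no arrays, and their difference passed for 0 of 42 members, with Tekt3 and Tsga10 at an unadjusted p under 0.05 in limma. For Tsga10 the KO effect was -0.92 and the KI effect -0.21, for Rfx2 -0.86 and -0.28, for Tekt1 -0.57 and -0.11, for Ccdc65 -0.86 and -0.42, and for Rsph1 -1.51 and -0.65.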

How the data were processed

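The deposited values were log2 expression levels per transcript cluster, which the authors made from Affymetrix whole-transcript arrays; per the submitters' processing notes the tools were Partek 6.6, RMA and Expression Console, without their order or settings. Filters and annotation release: not given in the sources used here. Because RMA brings all arrays to 1 distribution, an overall shift in RNA content would not show. Of 41345 clusters, 23521 had 1 gene symbol in the platform annotation, and of several clusters for a gene the brightest was kept, which gave 22180 genes. Arrays give no counts, so 12 arrays and the background limit set the precision.

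Genotypes were compared with limma 3.58.1 in R 4.3.3 (two-sided moderated test) on all 12 arrays in 3 genotype groups, or 4 groups for litters, with Benjamini-Hochberg adjustment over 22180 genes at 0.05 and no filter. Exact permutation tests used scipy 1.17.1, and figures matplotlib 3.10.9. The fit was tested on simulated data. Shown with every array were members that passed in any comparison (up to the 12 of smallest p), the 3 transcription factors and, for each role, the member of the largest KO difference; other pathway genes were named up to the 10 of smallest p. Members and lists were chosen with earlier results of these data known. Alternatives were other normalizations, a filter, averaged clusters, array weights, left-out arrays, a replicate block and littermate controls. Protein sequences were not used here.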

Additional observations from a re-analysis of the deposited data

How the results depend on the processing

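The count of members lower in KO than in WT testes (5) was 5 with median centring (2.52% of all genes lower). It was 5 with repeated quantile normalization (2.6%) and with averaged clusters (2.26%), and 4 with array weights (1.96%). It was 12 with genes below the background limit left out (6.79% of the genes then tested), 0 to 15 with single arrays left out, 24 without WT 4 and WT 6 (chosen after seeing the data) and 0 with KO littermates only; the higher count was 2 without WT 4 and WT 6. The cause was not tested, apart from the number of genes tested under the filter. Leaving out single arrays gave 0 to 3 calls for KI over KO, for WT of KI over KO litters and for KO below KO littermates, the 3 calls beside 1.54%, 0.216% and 1.28% of all genes. The differences of the 5 called genes stayed negative under all 21 alternatives, with adjusted p from 0.00139 to 0.241 in limma. Rfx3 in KO minus WT ran from -0.0009 (without KO 3) to 0.11 with single arrays left out, and was -0.0307 with KO littermates only.

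In KI minus WT, differences near 0 changed sign with single arrays left out. Dnah8 ran from -0.31 to 0.0983, Spag17 from -0.37 to 0.0693, Zmynd10 from -0.47 to 0.0132, Tekt1 from -0.0326 to 0.16, Ccdc65 from -0.26 to 0.12, Ift88 from -0.19 to 0.0555, Rfx2 from -0.19 to 0.031 and Tsga10 from -0.18 to 0.10. Tekt1 was -0.12 without WT 4 and WT 6.

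Deviations of same-numbered arrays correlated at -0.0347 to 0.159 and those of differently numbered arrays at -0.19 to 0.0842. The 3 highest of 27 values were same-numbered, but in each comparison at least 1 same-numbered pair was below 0.10, so the arrays were not treated as paired. A replicate block on KO 1 to 3 and WT 1 to 3 gave 20 lower members (2.59% of all genes). The same 6 arrays without it also gave 20 (2.53%). KI minus WT and KI minus KO had 0 calls with the block. With the block, on the same 6 arrays without it, and with KI littermates only, Tekt1 was -0.11 and Rfx3 0.0438 in KI minus WT.

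Members above background in every testis numbered 11 in WT, 9 in KO and 16 in KI at the 99th percentile of olfactory receptor genes, and 15, 13 and 17 at the median of all genes. Signal over background limits the 10 members at or below the limit.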

Other observations

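Dnah7a, an inner arm heavy chain gene outside the 48, had the lowest KO minus WT difference of the 131 other pathway genes, at -2.12, and did not pass (limma adjusted p = 0.0576). Odf1, a major protein gene of the outer dense fibres, lay at 10.72 ± 0.09 (SD, n = 6) for WT testes and 10.98 ± 0.15 (SD, n = 3) for KO testes, a difference of 0.27 that did not pass (limma adjusted p = 0.0786). The spermatid nuclear genes Prm1, Tnp1, Tnp2 and Hils1 lay below the background limit on all arrays. Whether the Odf1 cluster reads Odf1 transcript in these testes was not tested. Akap4, the main fibrous sheath gene, averaged 4.60 in WT testes, below the background limit. Dnah7a, Odf1 and Akap4 were chosen after their values were seen.

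Of the 6 members with a second cluster, Hydin differed by -0.45 in the cluster used and -0.016 in the other, Dnah2 by -0.10 and 0.14, and Tekt2 by 0.14 and -0.023 in KO minus WT.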
